A study of Mus musculus with 8 samples.

Results

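Loops at 9 genes of the TGF-beta pathway were described from FOXA1 and HNF4G Hi-ChIP in mouse pancreatic cancer cells. A loop is a pair of genomic intervals (anchors) that the loop caller joined through ligated read pairs, in chromatin pulled down with an antibody to the named factor. A loop was counted for a gene when either anchor lay within 2 kb of any annotated start of that gene, and the other anchor was called its partner. Of 249200 distinct loops in the series, 328 met this rule, and of 30542 distinct anchors 15 lay at a member gene. All 9 genes had at least 1 loop in each of the 4 lists, and the share of all annotated genes that did was not calculated.

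The 8 samples came from a primary tumor cell line of the KPC mouse and from a liver metastasis (liver mets) line matched to it, with 2 replicates for each of FOXA1 and HNF4G in each line. KPC mice are a genetically engineered model of pancreatic cancer. Both lines were labeled WT in genotype and untreated, and were grown in DMEM with FBS. Each condition was represented by 1 cell line. Each group had 1 loop list over both replicates, so no spread between replicates could be calculated, and all intervals below cover counting error only.

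The TGF-beta ligands bind a complex of type I and type II receptors, which phosphorylates the receptor-regulated Smad proteins, and these enter the nucleus with Smad4 to regulate transcription. Smad6 and Smad7 act back on the receptors as inhibitors and are themselves induced by the pathway, whereas Ski and SnoN (encoded by Skil) repress Smad target genes. In pancreatic cancer the pathway restrains growth in early lesions and is known for its part in epithelial-mesenchymal transition and invasion later. FOXA1 is a forkhead pioneer factor of endodermal epithelia, and HNF4G is a nuclear receptor of the gut and pancreas.

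Sequences are shown for anchors within Smad3, since a loop between parts of this gene had the highest member value in each list except HNF4G liver mets, and for the promoter of Smad6, the member gene that was looped to Smad3. The letters searched, on both strands, were TGTTTAC and TGTTTGC for forkhead factors, CAAAGTCCA and CAAAGGTCA for HNF4 factors and GTCTAGAC, a palindromic element bound by Smad proteins. No printed match overlapped another. The Morn1 intron anchor of the Ski loop that led HNF4G liver mets (chr4:155129383-155131602) contained none of these letters. CAAAGTCCA was present once in each of 3 anchors within Smad3 that were joined to one another in all 4 lists, whereas 4.40% of all 30542 anchors contained it. These anchors were 8.05, 13.5 and 10.4 kb long, and longer anchors hold more matches of any short word. The windows below, of 69 bases from the plus strand of chromosome 9 (GRCm38.p6, RefSeq), lie in introns and have the match in capitals.
Smad3 intron, chr9:63700154-63700222: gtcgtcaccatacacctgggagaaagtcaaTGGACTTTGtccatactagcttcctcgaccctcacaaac
Smad3 internal anchor, chr9:63726321-63726389: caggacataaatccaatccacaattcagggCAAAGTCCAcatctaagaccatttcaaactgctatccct
Smad3 internal anchor nearer the 5′ start, chr9:63742837-63742905: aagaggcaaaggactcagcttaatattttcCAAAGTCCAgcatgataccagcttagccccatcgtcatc

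The same anchors also held forkhead letters, of which TGTTTAC was present in 36.6% and TGTTTGC in 43.4% of all anchors. The anchor over the 5′ start of Smad3 had 1 TGTTTAC and no HNF4 letters. Windows of 67 bases around 1 TGTTTAC match are shown for that anchor and for 1 partner each of Skil, Ski and Tgfb1. These partners were listed in all 4 lists, and the other such partners of these genes held no TGTTTAC. The windows are again from the plus strand with the match in capitals. None of these windows overlapped an annotated exon.
Smad3 5′ start anchor, chr9:63758878-63758944: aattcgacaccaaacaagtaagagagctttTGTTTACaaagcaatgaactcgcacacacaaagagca
Skil upstream partner, chr3:31062713-31062779: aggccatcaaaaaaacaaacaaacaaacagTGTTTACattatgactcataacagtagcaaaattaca
Ski intronic partner, chr4:155165277-155165343: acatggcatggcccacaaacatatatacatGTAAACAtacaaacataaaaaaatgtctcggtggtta
Tgfb1 downstream partner in Ccdc97, chr7:25710198-25710264: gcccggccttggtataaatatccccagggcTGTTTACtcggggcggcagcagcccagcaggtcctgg

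RefSeq promoters were given for 7 of the 9 genes, with no entry for Smad7 and Skil. The Smad6 promoter, on the minus strand of chromosome 9, contained both the palindromic Smad element, which was present in 0.213% of 32851 promoters of the same length, and a TGTTTGC, which was present in 5.07%. It is printed over its 300 bases with both matches in capitals. The Tgfb2 promoter had 1 TGTTTGC, and the promoters of Tgfb1, Tgfbr1, Tgfbr2, Smad3 and Ski had none of the letters searched.
Smad6 promoter, chr9:64022010-64022309: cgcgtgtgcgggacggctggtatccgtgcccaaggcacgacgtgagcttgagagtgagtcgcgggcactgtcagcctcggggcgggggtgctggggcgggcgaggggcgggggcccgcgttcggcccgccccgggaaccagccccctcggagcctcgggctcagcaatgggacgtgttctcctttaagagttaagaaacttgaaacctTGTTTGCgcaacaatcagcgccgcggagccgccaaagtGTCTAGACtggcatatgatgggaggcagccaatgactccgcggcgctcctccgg

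Across the 15 member anchors, TGTTTAC and TGTTTGC were present in 6 each (40.0%), CAAAGTCCA in 2 (13.3%), both in Smad3, CAAAGGTCA in 0, and GTCTAGAC in 2 (13.3%), 1 each at Smad6 and Smad7. Among 215 partner anchors TGTTTAC was present in 31.6%, TGTTTGC in 38.1%, CAAAGTCCA in 3.72%, CAAAGGTCA in 1.86% and GTCTAGAC in 2.79%. Over all anchors, CAAAGGTCA was found in 4.76% and GTCTAGAC in 2.55%. These HNF4 and Smad shares rest on 4 to 8 partner anchors, and their difference from all anchors was not tested. Among the 29 partners of loops in all 4 lists, Smad3 anchors included, CAAAGTCCA was found in 4, CAAAGGTCA in 1 and GTCTAGAC in 0. TGTTTAC was found in 9 of them (31.0%) and TGTTTGC in 13 (44.8%), against 36.6% and 43.4% of all anchors. These shares do not allow for anchor length, which differed between the sets. Per 10 kb, TGTTTAC had 1.58 matches in member anchors and 1.31 in these 29 partners, against 1.79 in all anchors. TGTTTGC had 1.58 and 1.92, against 2.28. CAAAGTCCA and GTCTAGAC had 0.287 each in member anchors, on 2 matches each, against 0.168 and 0.0965.

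The inhibitory and receptor-regulated Smads carried most of the loops. Smad3 had 104 distinct loops, Smad7 had 81 and Smad6 had 40, against a median of 16 over the 15439 genes with an anchor near a start, which placed Smad3 at the percentile 98.9, Smad7 at 97.5 and Smad6 at 87.3. Tgfb1 had 36 distinct loops, and the corepressors Ski and Skil had 20 each. The receptors were at the low end, with 13 distinct loops at Tgfbr2 and 7 at Tgfbr1, and the ligand Tgfb2 had 11. Smad3 had 4 anchors near annotated starts, Smad7 had 3 and Smad6 had 2, whereas the other genes had 1 each, and the numbers were not divided by the number of anchors.

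**Figure D1:**
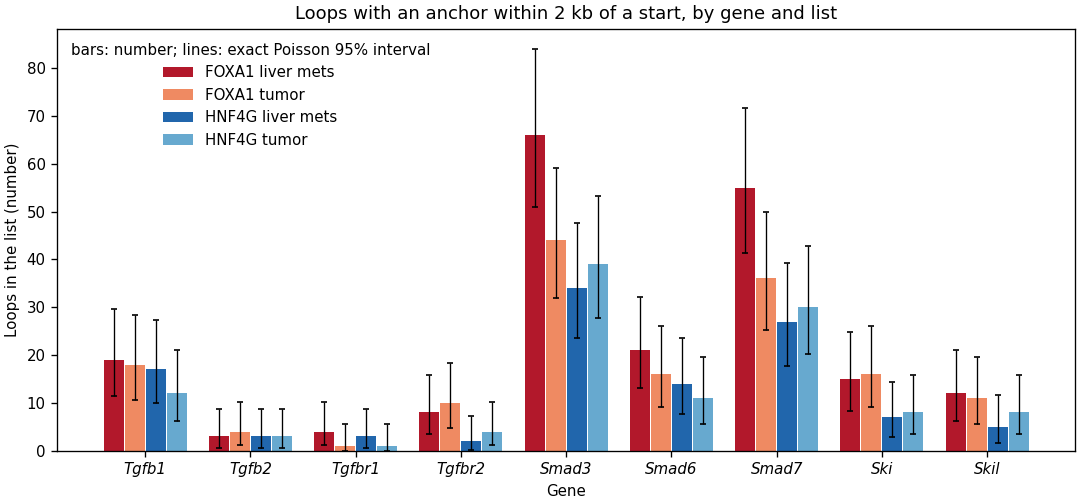
Number of loops (y axis) with an anchor within 2 kb of a start of each gene (x axis), with 1 bar for each of the 4 lists and exact Poisson 95% intervals. Smad3 and Smad7 stand highest in every list, with 66 and 55 loops in FOXA1 liver mets, and Tgfbr1 has 1 loop in each tumor list.

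The 4 lists held 199 and 156 member loops with FOXA1, in liver mets and tumor, and 111 and 114 with HNF4G. Here and below, the value in liver mets is given before that in tumor for each factor. As a share of all loops of each list, these were 0.158% and 0.150% with FOXA1 and 0.142% and 0.149% with HNF4G. The lists themselves differed in length, from 125623 loops in FOXA1 liver mets to 76323 in HNF4G tumor, and sequencing depth is unknown here, so lists were compared by the ratio of these shares. For FOXA1, liver mets over tumor gave 1.06 (95% interval 0.853 to 1.31), and HNF4G gave 0.952 (0.726 to 1.25). FOXA1 over HNF4G gave 1.00 (0.783 to 1.29) in the tumor line and 1.11 (0.879 to 1.42) in the liver mets line. All 4 intervals included 1. Without scaling, the number of FOXA1 loops was 1.28 times higher in liver mets than in tumor (1.03 to 1.58), and 1.79 times higher than that of HNF4G in liver mets (1.41 to 2.28).

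Gene by gene, a ratio of shares of 1.5 or more, or its inverse or less, with at least 10 loops in the 2 lists, was called higher or lower. For FOXA1 in liver mets over tumor, 0 of the 7 genes with enough loops were called higher, while 11.9% of all genes were, and only Tgfbr2 was called lower (8 against 10 loops, ratio 0.663, 0.227 to 1.87, or 0.8 and no longer called without scaling), while 14.6% of all genes were. For HNF4G, of 6 genes with enough loops only Skil was called lower (5 against 8 loops, 0.611, 0.157 to 2.12), as 19% of all genes were, and none was called higher, as 12.9% of all genes were. Between factors, Tgfbr2 was called higher with FOXA1 in the tumor line (10 against 4 loops, 1.83, 0.528 to 8.0) and in the liver mets line (8 against 2 loops, 2.49, 0.496 to 24.0), where 14.2% of all genes were called higher in each. In both, 7 members had enough loops and 0 were called lower, while 20.9% of all genes were in the tumor line and 18.5% in the liver mets line. No other member was called higher or lower in these 4 comparisons, and each interval of a called ratio included 1.

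For Smad3 the FOXA1 ratio of liver mets to tumor was 1.24 (66 against 44 loops, 0.836 to 1.86), and the HNF4G ratio was 0.852 (34 against 39 loops, 0.522 to 1.39). Smad7 had a FOXA1 ratio of 1.27 (55 against 36 loops, 0.817 to 1.98) and an HNF4G ratio of 0.880 (27 against 30 loops, 0.503 to 1.53). With only loops of a value of at least 2 (the value is described with Tgfb1 below), both Smad7 ratios turned direction, to 0.597 for FOXA1 on 13 loops (0.166 to 2.08) and 3.97 for HNF4G on 5 loops (0.393 to 195). Tgfb1 had the ratios the other way round, with 0.875 for FOXA1 (19 against 18 loops, 0.435 to 1.77) and 1.38 for HNF4G (17 against 12 loops, 0.623 to 3.18). The intervals of the factors overlapped for each of these genes, and none excluded 1. Smad6 was above 1 for both factors, with 1.09 for FOXA1 (21 against 16 loops) and 1.24 for HNF4G (14 against 11 loops). Without scaling the Tgfb1 ratio for FOXA1 was 1.06, and at values of at least 2 the HNF4G ratios of Tgfb1 and Smad6, on 2 loops each, were 0.992 and 0, so these directions depended on such choices too.

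Most member loops were listed once. Of 328 distinct loops, 185 were in 1 list only (56.4%, Wilson 95% interval 51.0 to 61.7), 68 in 2 lists, 41 in 3 lists and 34 in all 4 lists (10.4%, 7.51 to 14.1). Over all 181129 distinct loops with an anchor near any start, 65.7% were in 1 list and 5.54% in all 4. Membership depended on how anchors were matched and on weak loops. With anchors widened by 5 kb, 37.5% of member loops were in all 4 lists and 28.7% in 1 list. Counting only values of at least 2 left 40 loops, of which 2.5% were in all 4 lists and 72.5% in 1 list. Below 50 kb, 23 of 66 member loops were in all 4 lists (34.8%, 24.5 to 46.9), against 22.5% of all loops with a start anchor, and between 50 and 200 kb 11 of 83 were (13.3%, 7.56 to 22.2), against 5.57%. From 200 to 500 kb and from 500 to 1000 kb, 0 of 68 member loops each were in all 4 lists (Wilson upper bound 5.35%), and from 1000 to 2000 kb 0 of 43 were (8.2%). Over all loops with a start anchor these shares were 1.07%, 0.322% and 0.0171%, which the member loops could not be told apart from. From 500 to 1000 kb, 60 of 68 member loops were in 1 list only (88.2%), which was close to the 88.5% over all loops with a start anchor.

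By gene, Ski had the highest share in all 4 lists, with 6 of 20 loops, and Smad3 had the highest number, with 13 of 104. Smad7 had 8 of 81, Tgfb1 3 of 36, Smad6 2 of 40 and Skil 2 of 20, and Tgfb2, Tgfbr1 and Tgfbr2 had none. Both lines shared more member loops for FOXA1 than the background did: 89 loops were in both FOXA1 lists, or 44.7% of the liver mets list and 57.1% of the tumor list, against 34.2% and 40.6% of all loops with a start anchor. For HNF4G, 51 loops were in both lists, or 45.9% of liver mets and 44.7% of tumor, against 34.1% and 33.7%. The median span of member loops was 94.7 and 97.6 kb with FOXA1 and 92.0 and 81.0 kb with HNF4G. Over the loops with a start anchor it was 174 and 149.6 kb and 123 and 142 kb. The sharing of member loops has to be read beside these shorter spans per list. A loop in several lists enters the median of each. Over distinct loops the median was 242 kb for member loops, against 235 kb for all loops with a start anchor. In both span ranges below 200 kb, the share in all 4 lists was above the background too, as given above. Spans were not made equal within these ranges. From 50 to 200 kb the median span was 91.9 kb for member loops and 112 kb for all loops with a start anchor. Below 50 kb it was 24.3 and 25.0 kb. Loops of 1 gene also share anchors and partners, and a difference in sharing at equal span was not tested.

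**Figure D2:**
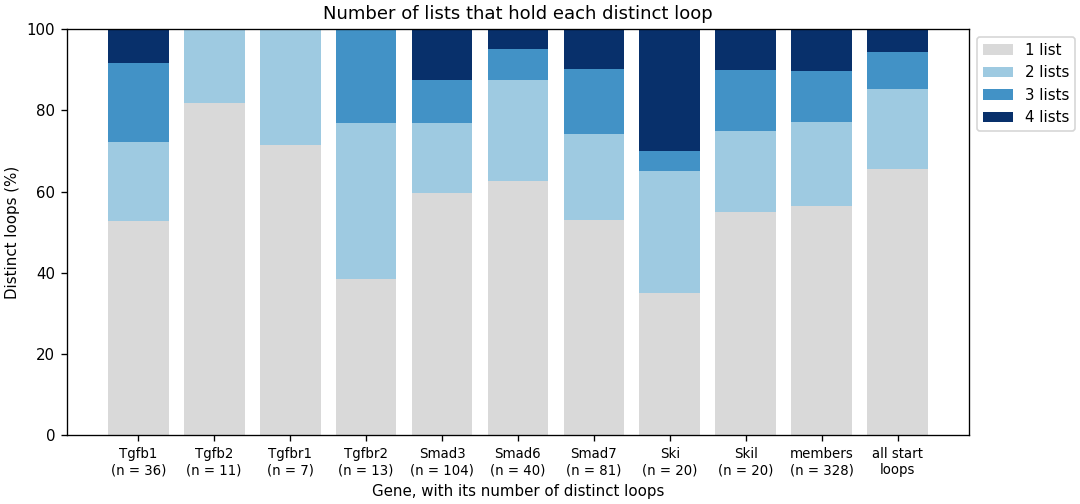
Share of distinct loops (y axis, percent) that were in 1, 2, 3 or 4 lists, for each gene (x axis, with its number of distinct loops), for the 328 member loops and for all loops with a start anchor. Ski has the largest share in 4 lists, and Tgfb2, Tgfbr1 and Tgfbr2 have no loop in 4 lists.

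Loops were also sorted by factor and by line. FOXA1 lists alone held 154 of the 328 loops (47.0%), and HNF4G lists alone held 62 (18.9%, 15 to 23.5), against 47.1% and 26.1% of all loops with a start anchor. Of the 154, 26 were in both FOXA1 lists (7.93% of member loops, 5.49% of the background), among them 7 of Smad7 and 5 of Ski. Only 5 of the 62 were in both HNF4G lists (1.52%, background 1.94%): 2 were at Smad3, 1 at Smad6 and 2 at Smad7. Liver mets lists alone held 115 loops (35.1%, background 38.7%), of which 12 were found with both factors (3.66%, background 3.45%), and tumor lists alone held 86 (26.2%, background 33%), of which 4 were found with both factors (1.22%, background 2.61%). The 4 tumor loops ran from Tgfb2 to the start of Gm37272, from Smad6 to a Smad3 intron, and from Skil to the starts of Actrt3 and Mynn and of Prkci.

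A partner without any annotated start within 2 kb was found in 211 of the 328 loops (64.3%, 59.0 to 69.3), against 61.3% of all loops with a start anchor. The share was higher among short member loops, at 80.3% (69.2 to 88.1) below 50 kb and 80.7% (71.0 to 87.8) from 50 to 200 kb, where all loops with a start anchor had 63% and 61%. It was 45.6% (34.3 to 57.3) from 200 to 500 kb, against 61.1%. These intervals treat loops as independent, yet the 104 Smad3 loops had 56 distinct partners and the 81 Smad7 loops had 42. A partner reached from several anchors of a gene was thus counted more than once. In all, 117 partners lay at a start, 97 were intergenic, 95 intronic and 19 exonic, and 41 loops stayed within the member gene.

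**Figure D3:**
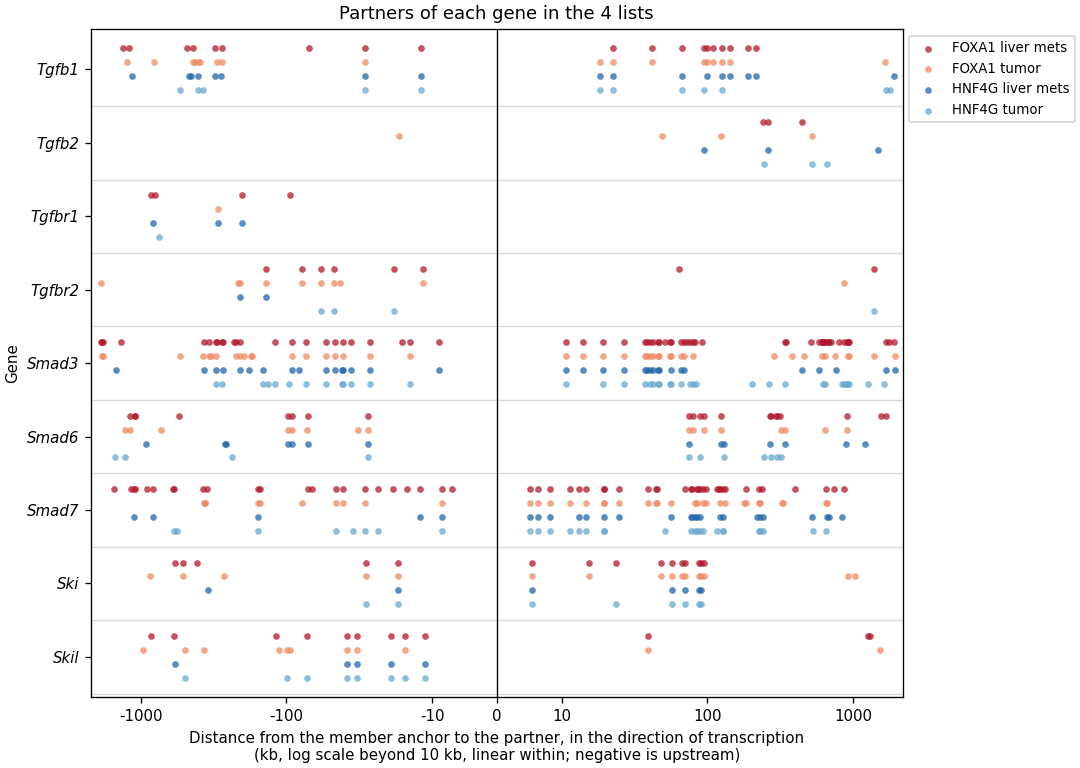
Distance from the member anchor to the partner (x axis, kb, log scale beyond 10 kb and linear within, negative upstream of the gene) for each gene (y axis), with 1 row of points per list. All 7 Tgfbr1 partners lie upstream and 10 of 11 Tgfb2 partners downstream, and points stacked in 4 rows, which mark loops in all 4 lists, lie within 156 kb.

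Among the ligands, Tgfb1, which encodes the most abundant TGF-beta, had its anchor at chr7:25686272-25690264 over the 5′ start of the gene. It looped mainly to other starts, which made up 23 of 36 partners. Its loops in all 4 lists numbered 3. The first ran 22.6 kb downstream to an exonic anchor in Ccdc97 (chr7:25708460-25713252) and had values of 3.39 and 1.72 with FOXA1 and 2.76 and 0.45 with HNF4G. The value is the score that the loop caller's output gave each loop, between 0 and 20, and is read as the −log10 of an adjusted p from its distribution only. Long runs of tied values differ between lists, so equal values in different lists need not stand for equal evidence. The second ran 127 kb downstream to the start of Cyp2s1, a cytochrome P450 gene, with values of 0.96 and 3.70 with FOXA1 and 1.56 and 2.47 with HNF4G. The third ran 29.0 kb upstream to the starts of Bckdha and Exosc5, with values of 1.52 and 0.35 with FOXA1 and 0.15 and 0.17 with HNF4G. The downstream loops thus had the higher value in at least 3 of the 4 lists. The highest Tgfb1 value, 4.42, belonged to a loop of 110.4 kb to an intergenic anchor in FOXA1 tumor, which had 1.24 in FOXA1 liver mets and was in neither HNF4G list. Anchors at Axl, a receptor tyrosine kinase, were reached in 3 lists each, at 94.5 kb in an intron and at 100.2 kb at its start. On the downstream side, the 2 loops that were in both liver mets lists and no tumor list, at 190.4 and 215 kb, ended between genes and in an intron of Cyp2b10.

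Tgfb2 encodes a second TGF-beta ligand, and its anchor (chr1:186704685-186706195) also lay within 2 kb of a start of Gm29491, so its loops cannot be assigned to either alone. It had 3 and 4 loops with FOXA1 and 3 and 3 with HNF4G, and 9 of its 11 loops were in 1 list. The partners lay downstream except for an anchor in Rrp15, 16.9 kb upstream, and 7 of the 11 were intergenic. The highest value, 3.66 in FOXA1 tumor, was that of the loop of 523 kb to the start of Gm37272, which had 1.97 in HNF4G tumor and was absent from both liver mets lists. A loop of 259 kb to an intergenic anchor had the reverse pattern, with 1.61 for FOXA1 and 1.85 for HNF4G in liver mets and no entry in tumor.

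The receptors had few and mostly unshared loops. Tgfbr1, the type I receptor gene, had 4 loops with FOXA1 and 3 with HNF4G in liver mets and 1 in each tumor list, and all 7 distinct partners lay 94.5 to 845 kb upstream. Loops in 2 lists ended at the start of Anks6, 294 kb away (1.77 in FOXA1 tumor and 1.90 in HNF4G liver mets), and at an intergenic anchor 201 kb away (1.41 for FOXA1 and 1.77 for HNF4G, in liver mets). Its single loop under 100 kb ended at the start of Col15a1, a collagen gene, with 0.33 in FOXA1 liver mets. With 5 loops in the FOXA1 lists together and 4 in the HNF4G lists, no comparison between lists was made for this gene.

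Tgfbr2, the type II receptor gene, had 8 and 10 loops with FOXA1 and 2 and 4 with HNF4G. Most partners, 10 of 13, lay upstream, and 3 of these were in 3 lists. They were an exonic and an intronic anchor of Gm31410 at 47.0 and 57.6 kb, found with FOXA1 in both lines and with HNF4G in tumor, and an intergenic anchor at 138 kb. The latter had values of 1.03 in FOXA1 liver mets, 1.35 in FOXA1 tumor and 1.57 in HNF4G liver mets. No Tgfbr2 loop reached a value of 2 in these lists, and the highest values, 1.87, 1.91 and 1.99, belonged to loops of 865 to 1865 kb and were the tied values that long loops of a list share.

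Smad3, the receptor-regulated Smad that carries TGF-beta signals to DNA, had the most loops of the 9 genes and, in each list except HNF4G liver mets, the loop with the highest value. Its 4 anchors lay over the 5′ start (chr9:63756803-63759238) and further inside the gene, and 24 of its 104 loops ended within Smad3 itself. The loop between the internal anchors chr9:63742156-63752536 and chr9:63713844-63727354, 26.7 kb apart, had values of 20 and 20 with FOXA1 and 7.58 and 11.6 with HNF4G. It was the only member loop at 20, the top of the scale, in either FOXA1 list, and it led the Smad3 loops of each list. The latter anchor was 13.5 kb wide and its nearest start was 1.88 kb away.

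From chr9:63713844-63727354, the loop of 19.3 kb to the intron anchor chr9:63697269-63705319 had values of 8.63 and 6.37 with FOXA1 and 1.35 and 2.68 with HNF4G. A second intron anchor, 42.7 kb away, had 5.13 and 2.66 with FOXA1 and 0.99 and 0.17 with HNF4G. Both FOXA1 values were higher than both HNF4G values for these loops. The 5′ start anchor was joined to the 13.5 kb anchor with 5.05 and 1.83 with FOXA1 and 1.5 and 7.14 with HNF4G, where HNF4G tumor was highest, and to the anchor 10.7 kb away with 5.0 and 1.61 with FOXA1 and 1.22 and 1.47 with HNF4G, where FOXA1 liver mets was highest. These contacts thus shared anchors in all 4 lists and differed in which list had the highest value. The CAAAGTCCA windows printed above come from the anchors of the loops with 20 and 8.63.

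The anchors of Smad3 differed in how their loops were distributed over the lists. The 5′ start anchor had 10 and 5 loops with FOXA1 and 4 and 9 with HNF4G, so that liver mets over tumor was 1.66 for FOXA1 (0.516 to 6.18) and 0.434 for HNF4G (0.0977 to 1.56). Over all start anchors with at least 10 loops, 12.5% were called higher with FOXA1 and 20.3% lower with HNF4G. Of start anchors with at least 10 loops for each factor, 4.57% were called in opposite directions in this way. The 13.5 kb anchor had 28 and 22 loops with FOXA1 and 14 and 17 with HNF4G, and the anchor at chr9:63742156-63752536 had 26 and 17 with FOXA1 and 16 and 11 with HNF4G. The anchor nearest the 3′ end had 8 and 4 with FOXA1, a ratio of 1.66 (0.444 to 7.52) that was also called higher. With HNF4G it had 3 and 6 loops, too few for a call. Over the whole gene the opposite directions were smaller, as given above.

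Smad3 and Smad6 are neighbors, with 5′ starts 264 kb apart, and 4 loops of 270.4 to 302 kb joined an internal Smad3 anchor to a Smad6 anchor. The loop between chr9:63713844-63727354 and the Smad6 5′ start anchor chr9:64020962-64024258 had values of 3.17 in FOXA1 liver mets and 5.63 in HNF4G tumor. The loop from chr9:63742156-63752536 to the same Smad6 anchor had 1.65 and 3.45 in those lists. The loops to the second Smad6 anchor, chr9:64016029-64019515, had 3.08 for FOXA1 and 1.85 for HNF4G in liver mets, and 1.68 in FOXA1 liver mets alone. All 4 loops were in FOXA1 liver mets, and none was in FOXA1 tumor by exact anchors. There a Smad6 anchor reached the Smad3 intron anchor chr9:63697269-63705319, next to the 13.5 kb anchor, at 321 kb with a value of 1.79. Of all FOXA1 liver mets loops with a start anchor, only 34.2% were also in FOXA1 tumor, so such absence was common. The 4 loops share anchors and are not independent of one another. The 4 loops were the only ones that joined start anchors of different member genes.

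**Figure D4:**
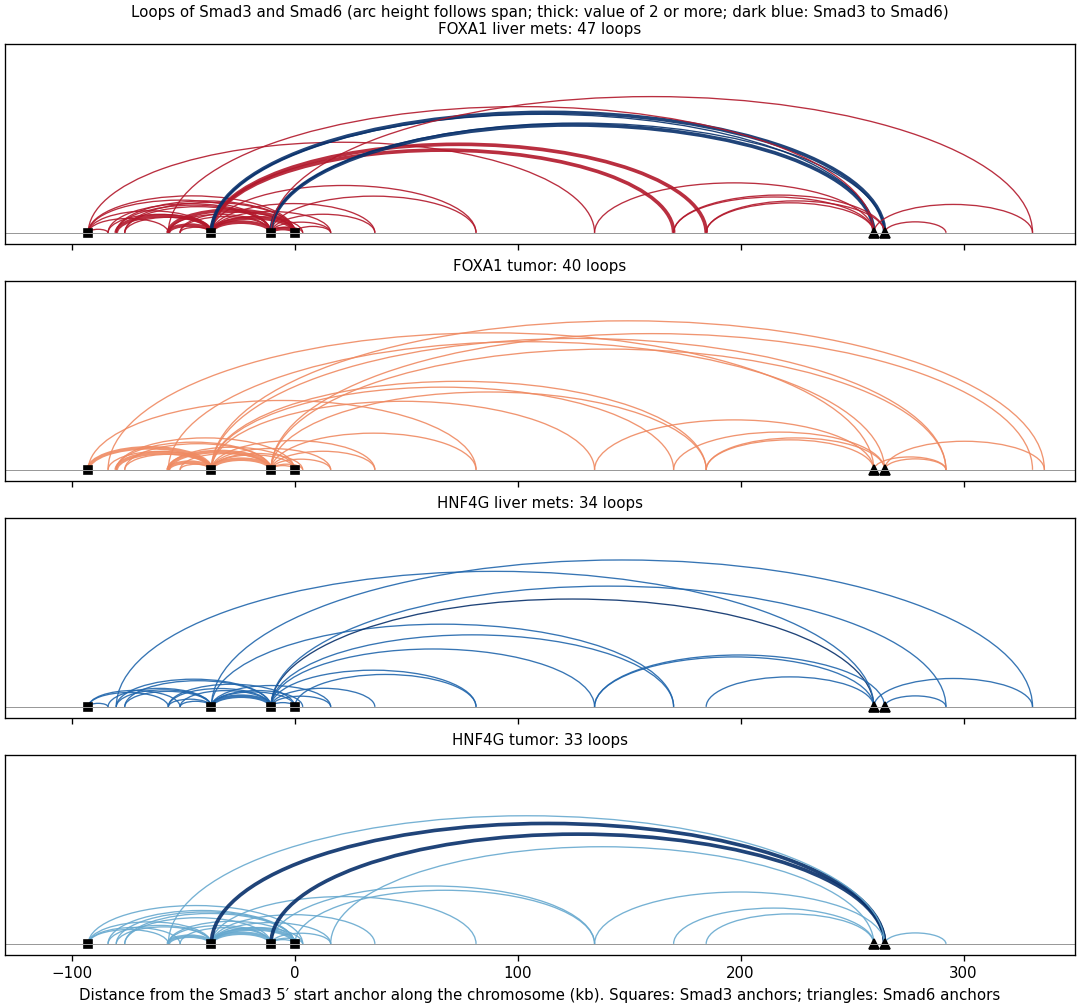
Loops of Smad3 and Smad6 from 130 kb downstream to 350 kb upstream of the Smad3 5′ start anchor (x axis, distance along the chromosome in kb), with 1 panel for each list and arc height following the span. Thick arcs have a value of 2 or more and dark blue arcs join Smad3 to Smad6, which are present in the FOXA1 liver mets, HNF4G liver mets and HNF4G tumor panels.

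Of 51 Smad3 partners and 28 Smad6 partners that were not member anchors, 18 were partners of both genes, which is 35.3% and 64.3% of each. The 4 lists were pooled for this. The start of Anp32a, for example, was joined to Smad3 in FOXA1 tumor only and to Smad6 in FOXA1 liver mets only. Other pairs of neighboring genes were not compared, so the shares have no background. Among these 18, 4 lay between the genes. An intergenic anchor 75.2 kb downstream of Smad6 (chr9:63940808-63944321) was joined to Smad6 in all 4 lists, with values of 0.09 and 0.43 with FOXA1 and 0.15 and 0.17 with HNF4G, and to Smad3 in the FOXA1 lists only, with 2.85 in liver mets and 1.69 in tumor for the loop of 222 kb. The start of Gm36033, a predicted gene between them, was joined to Smad3 at 207 kb with 2.75 in FOXA1 liver mets, 1.65 in FOXA1 tumor and 1.82 in HNF4G liver mets. An intergenic anchor 53.5 kb upstream of the 13.5 kb Smad3 anchor (chr9:63772457-63775773) was in all 4 lists, with 1.73 and 0.90 with FOXA1 and 1.61 and 1.01 with HNF4G. The values of the last loop lay close to each other.

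Smad6, an inhibitory Smad, had 21 and 16 loops with FOXA1 and 14 and 11 with HNF4G, and 21 of its 40 partners lay at starts. Its upstream loop of 27.5 kb to the start of 1110036E04Rik was in all 4 lists with low values, from 0.12 to 0.26. The start of Lctl, which encodes a lactase-like protein, was reached from both Smad6 anchors in both FOXA1 lists and in HNF4G liver mets, at 91.9 and 96.7 kb, and in HNF4G tumor from neither. The highest Smad6 value in FOXA1 liver mets and in HNF4G tumor was that of the loop to Smad3 described above, and in FOXA1 tumor and HNF4G liver mets it was a tied value, of loops of 1273 and 1203 kb.

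Smad7, an inhibitory Smad that blocks the type I receptor, had 55 and 36 loops with FOXA1 and 27 and 30 with HNF4G. Its 3 anchors lay side by side, from chr18:75364861 to chr18:75381454, and the first also lay within 2 kb of a start of Gm20544. Of the 81 loops, 24 ended at 9 anchors within Ctif, a translation initiation factor gene downstream, at 70.4 to 329 kb. The FOXA1 lists held 16 and 12 of these and the HNF4G lists 10 and 11, and 8 of the 24 were in 3 or 4 lists. A Ctif anchor was counted once for each Smad7 anchor joined to it, and the number was not set against the length of Ctif. The loop of 123 kb to a Ctif intron (chr18:75492599-75496069) had values of 2.75 in FOXA1 liver mets, 5.14 in FOXA1 tumor and 8.24 in HNF4G liver mets, and was not in HNF4G tumor. Another, of 84.7 kb, was in all 4 lists with 1.72 and 0.94 with FOXA1 and 2.56 and 0.63 with HNF4G. In both loops HNF4G liver mets had the highest value.

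Upstream, an anchor in an intron of Dym, 156 kb away, was joined to Smad7 in all 4 lists, with 1.25 and 1.48 with FOXA1 and 2.86 and 1.62 with HNF4G. It was the longest of the 34 member loops in all 4 lists. Close to the gene, the first and second anchors were joined over 5.08 kb with 6.92 and 0.97 with FOXA1 and 0.61 and 1.99 with HNF4G, and the second and the last over 6.41 kb with 3.80 and 2.10 with FOXA1 and 0.13 and 2.53 with HNF4G. These 2 short loops had their highest value in FOXA1 liver mets and their lowest in HNF4G liver mets, where the 2 Ctif loops above had their highest. They are 2 of 3 loops between Smad7 anchors and 2 of 24 Ctif loops, so they give no pattern over either set. HNF4G liver mets held the fewest Ctif loops, 10. The anchor furthest into the gene had 17 and 8 loops with FOXA1 and 7 and 7 with HNF4G. Liver mets over tumor with FOXA1 was 1.76 (0.720 to 4.72), called higher, as were 12.5% of all start anchors with at least 10 loops.

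Ski, a corepressor of Smad complexes, had 15 and 16 loops with FOXA1 and 7 and 8 with HNF4G, and 6 of its 20 loops were in all 4. The loop of 91.0 kb to an intron of Morn1 (chr4:155129383-155131602) had values of 0.38 and 1.91 with FOXA1 and 9.97 and 5.94 with HNF4G. It had the highest value of all member loops in HNF4G liver mets, and both HNF4G values lay above both FOXA1 values. The neighboring Morn1 intron anchor, 87.6 kb away, had 0.09 and 0.87 with FOXA1 and 0.95 and 0.37 with HNF4G, with no such difference between the factors. Within Ski, an intron anchor 57.0 kb from the start had 3.22 and 0.36 with FOXA1 and 1.97 and 1.12 with HNF4G. A further 5 Ski loops were in both FOXA1 lists and in no HNF4G list.

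Skil, which encodes the corepressor SnoN, had 12 and 11 loops with FOXA1 and 5 and 8 with HNF4G, and 16 of its 20 partners lay upstream. Intergenic anchors, 5 in number, between 11.1 and 38.4 kb upstream were joined to it in 3 or 4 lists. Those in all 4 lists, at 38.4 and 32.8 kb, had values from 0.15 to 0.46 and from 0.12 to 1.11. The loops with the highest values were longer and in 1 list each: 4.02 in FOXA1 liver mets over 1271 kb to the start of Zmat3, a p53 target, and 3.48 in FOXA1 tumor over 367 kb to an intergenic anchor.

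**Figure D5:**
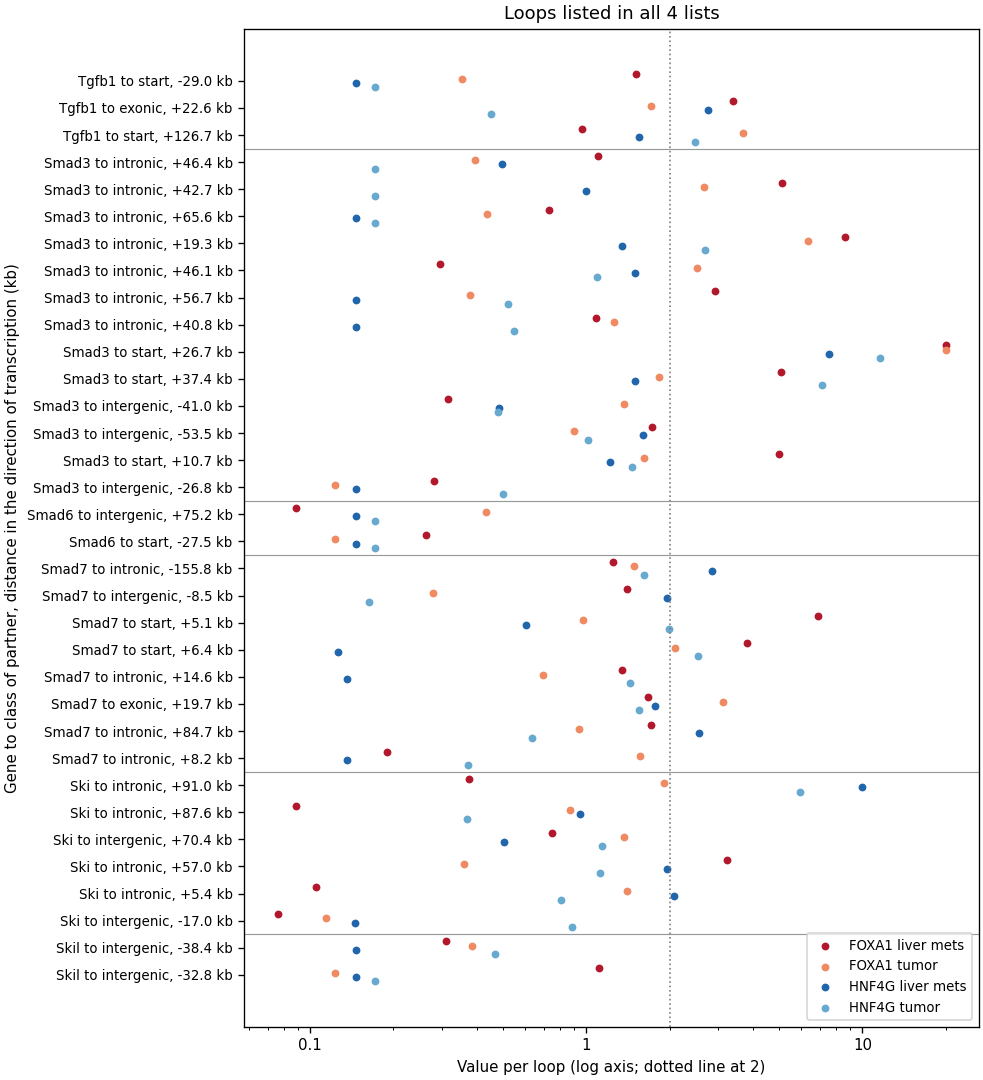
Value per loop (x axis, log scale, dotted line at 2) of the 34 member loops in all 4 lists, with 1 row per loop (y axis, gene, class of the partner and distance in kb) and 1 point per list. The Smad3 loop of 26.7 kb has the highest value in each list except HNF4G liver mets, where the Ski loop of 91.0 kb has 9.97.

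Values differed widely between lists for the same loop. Of the 34 loops in all 4 lists, 15 had their highest value in FOXA1 liver mets (1 of them tied with FOXA1 tumor), 8 in FOXA1 tumor, and 6 and 5 in liver mets and tumor with HNF4G. The same count over all loops in 4 lists was not made, so this order cannot be assigned to the member genes. Over the whole lists, 9.33% and 7.84% of loops with FOXA1 and 7.21% and 7.32% with HNF4G had a value of 2 or more. Of the 34 loops, 17 reached a value of 2 or more in at least 1 list. Only 1 did so in every list, the Smad3 loop with 20.

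Other genes of the TGF-beta and BMP pathways were looked up as a list of 65 genes, of which 49 had a loop. The share of all annotated genes with a loop was not calculated, so this count has no background. For FOXA1 in liver mets over tumor, 6 of 36 genes with at least 10 loops were called higher (16.7%) and 1 lower (2.78%), where 11.9% and 14.6% of all genes were, and the median ratio was 1.15, against 0.967 over all genes. Those higher included receptor-regulated Smads of the BMP branch. These were Smad1 (10 against 5 loops, interval 0.516 to 6.18) and Smad5 (12 against 5, 0.652 to 7.21). Also higher were the extracellular matrix gene Tgfbi (13 against 7, 0.571 to 4.56) and Amh (15 against 7, 0.682 to 5.15). So were Acvr2a (8 against 2, 0.662 to 32.1) and Rnf111 (10 against 5, 0.516 to 6.18). The gene called lower was the cell cycle inhibitor Cdkn1a (11 against 15, 0.253 to 1.42). All these intervals included 1. For HNF4G, 3 of 27 genes were called higher and 3 lower, or 11.1% each, where 12.9% and 19% of all genes were, with a median ratio of 1.04 against 0.977. No gene was called in the same direction for both factors. Between factors, 2 of 29 genes were called higher with FOXA1 (6.90%) and 4 lower (13.8%) in the tumor line, where 14.2% and 20.9% of all genes were. In the liver mets line, 6 of 35 were called higher (17.1%) and 5 lower (14.3%), where 14.2% and 18.5% of all genes were. Ltbp4, which binds latent TGF-beta in the matrix, was called lower with FOXA1 in the tumor line (12 against 14 loops, 0.628) and in the liver mets line (10 against 15, 0.414). It was the only gene of the list called in the same direction in both lines. The genes with the most distinct loops were Ltbp3 with 166, Axin1 with 68 and Ltbp1 with 59, so only Ltbp3 exceeded Smad3.

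Loops at cell type marker genes were also described. All 7 ductal epithelial marker genes (Krt8, Krt18, Krt19, Epcam, Cdh1, Muc1 and Sox9) had loops, in total 284 and 219 with FOXA1 and 171 and 189 with HNF4G. Fibroblast markers had loops at 2 of 7 genes (11 to 20 loops per list) and hepatocyte markers at 1 of 4 (1 to 6 loops), and the 5 leukocyte and 4 acinar genes had none. The marker lists were chosen with earlier results of these data known, and the share of all annotated genes with a loop was not calculated. These counts are thus no check of the cell type. Loops do not measure expression, and the part of other cells in the member loops was not tested.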

How the data were processed

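Hi-ChIP of FOXA1 and HNF4G was measured in 8 samples, 2 replicates in each of 4 groups, which were taken from the sample titles. Per the study's methods, read pairs were aligned to mm10 (GRCm38) and filtered with HiC-Pro at default settings. Duplicates were removed, reads were assigned to DpnII fragments, and loops were called with hichipper. The submitters' processing notes name HiC-Pro version 3.1.0. Where the anchors came from, how many paired reads a loop needed and how the replicates were joined were not given in the sources used here. The authors deposited 1 loop list per group with a value and a display score per loop. The deposited value has no name and is read as the −log10 of an adjusted p only from its distribution, and the display score followed from the value rounded down in each loop, so it was not used. Total loops per list were 76323 to 125623, and sequencing depth is unknown.

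Anchors were assigned to genes by the starts of GENCODE M21 transcripts within 2 kb, with Python 3.11.15, pandas 2.3.3, NumPy 2.4.6 and SciPy 1.17.1. The span is the distance between anchor midpoints. A loop was matched between lists when both anchors had the same coordinates. Ratios of shares were given exact (Clopper-Pearson) intervals conditional on the sum of loops, shares Wilson intervals and counts exact Poisson intervals, all at 95%. Loops of 1 anchor are not independent, so the intervals cover counting error only. No test was made between groups, since each had 1 list. A ratio of 1.5-fold with at least 10 loops was called, and the same rule over all genes gave the background. All 9 members were named, with the partners of loops in all 4 lists and of the highest value per list, beside loops chosen after their values were seen (Smad3 to Smad6, Ctif, Axl, Lctl and the loops found with 1 factor or in 1 line). The members, gene lists and motifs were chosen with earlier results of these data known. Sequences are those of RefSeq GRCm38.p6. The counting, intervals and motif matching were tested on simulated data. Alternatives changed the window, the starts, the minimum value and span, the scaling, the matching of loops and the members.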

Additional observations from a re-analysis of the deposited data

Results flagged for a closer look

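At the Smad3 5′ start anchor, the ratio of shares of liver mets to tumor was 1.66 with FOXA1 (10 against 5 loops) and 0.434 with HNF4G (4 against 9 loops), both past 1.5-fold and in opposite directions. It was singled out for these opposite directions among the 9 genes and 15 member anchors, some of which had too few loops for a call. Both intervals include 1 (0.516 to 6.18 and 0.0977 to 1.56), their difference was not tested, and 4.57% of all start anchors with at least 10 loops for each factor were called in opposite directions.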

How the results depend on the processing

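No paired analysis was possible because each group had 1 loop list over both replicates, so the replicate numbers of the labels could not be used, and no replicate could be left out. The 4 ratios of member loops, the share in all 4 lists, the share in 1 list and the share with a partner away from any start were recomputed with a window of 0 or 5 kb, the start of the gene record only, a minimum value of 2, a minimum span of 20 kb, and without Tgfb1. The ratios were also computed from numbers of loops and from loops with a start anchor, and list membership with anchors widened by 5 kb. Leaving out Smad3, the gene with the most loops, was added after seeing the data. Of 59 such values, 51 stayed within the 95% interval of the value reported. Unscaled, FOXA1 over HNF4G rose to 1.37 in the tumor line and 1.79 in the liver mets line, since the FOXA1 lists are longer. At a minimum value of 2, which left 40 distinct loops, the tumor line ratio was 1.45 (0.595 to 3.89), the share in all 4 lists 2.5% and the share in 1 list 72.5%. With anchors widened by 5 kb, 37.5% of loops were in all 4 lists and 28.7% in 1 list. With the start of the gene record only, 50.3% were in 1 list. The FOXA1 ratio of liver mets to tumor ranged from 0.943 to 1.28 and the HNF4G ratio from 0.899 to 0.992. Ratios of single genes were recomputed only with a window of 5 kb, at a minimum value of 2 and unscaled. Of these, 79 of 91 stayed within their interval, and 11 of the other 12 were at a minimum value of 2, with 1 to 14 loops. Among the latter, the Smad7 ratios of liver mets to tumor turned direction, to 0.597 with FOXA1 and 3.97 with HNF4G. The called ratios of Tgfbr2 and Skil kept their direction with a window of 5 kb and unscaled, but unscaled the Tgfbr2 ratio with FOXA1 was 0.8 (0.274 to 2.25), within 1.5-fold.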
